A study of Mus musculus with 4 samples.

Results

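The E2F genes encode DNA-binding transcription factors, and the 8 of them in the mouse, E2f1 to E2f8, were followed here in leukaemia-type cell lines with altered cell cycle kinases. All 8 were on the array, on 10 probes found through their RefSeq accession, and all 8 were among the 20045 genes that could be tested. The cells were fetal liver cells made immortal with the p185 form of BCR-ABL1, a fusion tyrosine kinase of acute lymphoblastic leukaemia, on a mixed C57BL/6J x CD-1 background, and both genotypes carried that transgene. The R/R lines were homozygous for Cdk4 R24C and Cdk6 R31C, knock-in substitutions known to keep INK4 inhibitors from binding the kinases, and the WT cells had neither. Each line was a clone that had grown out spontaneously, and RNA came from cultures that were not synchronised. R/R clones 1, 2 and 3, labelled with Cy5, were each hybridised on 1 array with a pool of WT RNA in Cy3, and on the 4th array the dyes were exchanged, with a pool of R/R RNA in Cy3 and the WT pool in Cy5. Both substitutions are point mutations, so transcript levels do not check the genotype labels. The labels do not say which lines the pools held, and clones 1 and 2 have clone numbers with the same stem, so they may not be independent.

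E2F proteins bind the promoters of genes for DNA replication and division, mostly as dimers with a DP protein encoded by Tfdp1 or Tfdp2. The pocket proteins RB (Rb1), p107 (Rbl1) and p130 (Rbl2) hold them in check until cyclin-dependent kinases such as CDK4 and CDK6 phosphorylate the pocket proteins late in G1. E2F1, E2F2 and E2F3 are classed as activators, E2F4 and E2F5 as repressors that work with pocket proteins, and E2F6, E2F7 and E2F8 as repressors that lack a pocket protein binding domain. The comparison asked whether transcripts of the activator and of the repressor E2Fs differed between R/R and WT cells.

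E2F genes are themselves known E2F targets, so the promoter windows of the member that changed and of the members that hold an E2F octamer are shown first. RefSeq windows of GRCm38.p6 were available for 6 of the 8 members, each covering the 250 bases before an annotated start and written along the gene's own strand. They were searched on both strands for TTTCCCGC, TTTCGCGC, TTTGCCGC and TTTGGCGC, the octamers TTTSSCGC of the textbook E2F site. Of 32851 windows of this length, 611 (1.86%) held at least 1 of them. Among the members, windows of E2f3 (chr13:29986064-29986313, minus strand) and E2f7 (chr10:110745189-110745438, plus strand) held 1 each. The windows of E2f6 (chr12:16810715-16810964, plus strand), E2f1, E2f2 and E2f8 held none. In both genes the octamer was TTTCCCGC on the strand opposite to the gene, at bases 240 to 247 of the E2f3 window and 53 to 60 of the E2f7 window. Capitals mark it below as it reads along the gene.
E2f6: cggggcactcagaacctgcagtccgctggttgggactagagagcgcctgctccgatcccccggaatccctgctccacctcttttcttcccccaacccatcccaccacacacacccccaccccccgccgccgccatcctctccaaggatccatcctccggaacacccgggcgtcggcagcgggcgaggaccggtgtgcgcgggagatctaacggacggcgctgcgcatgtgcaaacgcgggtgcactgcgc
E2f3: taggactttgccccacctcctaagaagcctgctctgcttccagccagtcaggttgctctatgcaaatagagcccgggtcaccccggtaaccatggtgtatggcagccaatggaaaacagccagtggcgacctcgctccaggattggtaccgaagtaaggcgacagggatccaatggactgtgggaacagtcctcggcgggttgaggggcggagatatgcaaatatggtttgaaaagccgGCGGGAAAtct
E2f7: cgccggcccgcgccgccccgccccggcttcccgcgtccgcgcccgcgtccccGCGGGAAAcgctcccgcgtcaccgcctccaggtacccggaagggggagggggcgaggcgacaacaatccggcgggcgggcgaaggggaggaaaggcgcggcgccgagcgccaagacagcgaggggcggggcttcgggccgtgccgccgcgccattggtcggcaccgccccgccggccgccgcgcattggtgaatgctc
A match describes these letters only, and a window with none does not show that the gene's promoter lacks an E2F site. Whether each window lies before the main start of its gene was not checked. E2f3 has another window in the table, with no octamer, and so has E2f2.

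Of the 8 genes, E2f6 rose in R/R cells, about 2-fold, and no other member passed the test. The 3 activators lay between 0.07 and 0.11 as fitted log2 ratios of R/R over WT, and the repressors other than E2f6 between 0.03 and 0.18. Thus 1 of 8 members was called, against 0.524% of all genes in either direction and 0.15% of all genes in the higher direction (limma, Benjamini-Hochberg adjusted p under 0.05). Over all genes 30 were called higher and 75 lower, a split that became 2 and 28 when arrays were median-centred instead of loess-normalised and 6 and 44 with the scanner software's ratios. The E2f6 call lay close to the threshold and was lost under both of those scalings, while its value stayed near 1. Only the clones contribute to the 2 residual degrees of freedom, and the spread of the WT control does not enter the test.

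**Figure D1:**
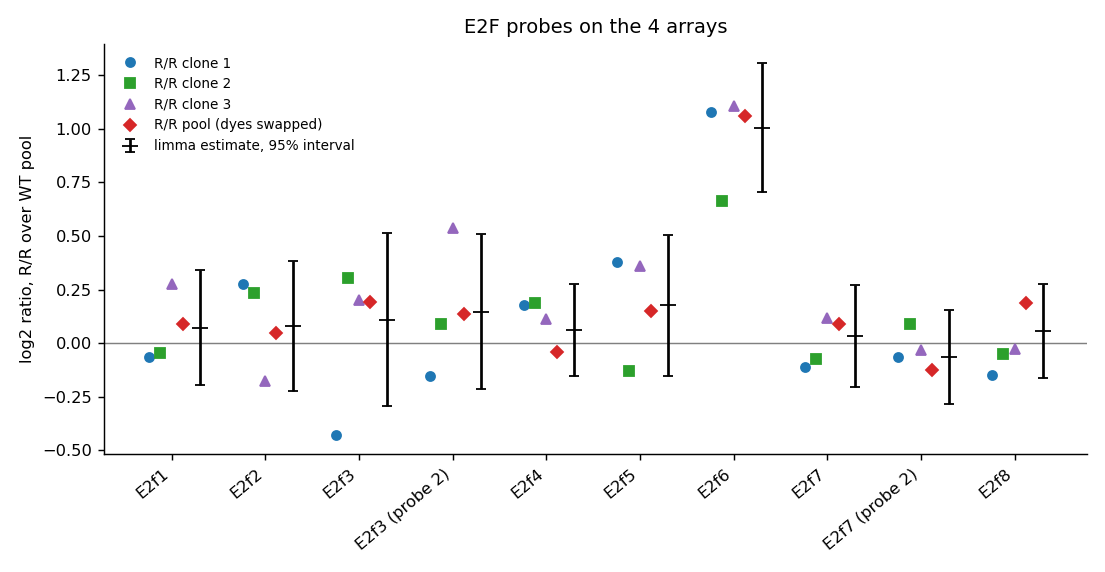
Log2 ratio of R/R over WT pool (y axis) for the 10 E2F probes (x axis) on the 4 arrays, each point 1 array, with the limma estimate and its 95% interval as a black bar. All 4 points of E2f6 lie between 0.66 and 1.11, and every other probe lies between -0.43 and 0.54 with points on both sides of 0.

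Each value below is a log2 ratio of R/R over the WT pool with the array of exchanged dyes turned to that direction. Each estimate, given ± the SE of the fit, is the average of the clone mean (n = 3) and the value of the 1 pool. E2f1, the activator best known for also driving apoptosis genes, had -0.06 in clone 1, -0.05 in clone 2, 0.27 in clone 3 and 0.09 in the R/R pool. It was above the WT pool in clone 3 and the R/R pool and just below it in the other clones, with an estimate of 0.07 ± 0.11 (95% interval -0.20 to 0.34, limma adjusted p = 0.774). E2f2, an activator that restrains proliferation in some blood lineages, had 0.28, 0.23 and -0.18 in clones 1, 2 and 3 and 0.05 in the pool. Clone 3 was the low one here, the reverse of its place for E2f1, and the estimate was 0.08 ± 0.12 (interval -0.22 to 0.38, adjusted p = 0.784).

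E2f3, the activator gene that makes the isoforms E2F3a and E2F3b from separate starts, had 2 probes. The brighter gave -0.43 in clone 1, 0.31 in clone 2, 0.20 in clone 3 and 0.19 in the pool, an estimate of 0.11 ± 0.16 (interval -0.29 to 0.51, adjusted p = 0.776). The dimmer gave -0.15, 0.09 and 0.54 in clones 1 to 3 and 0.14 in the pool, an estimate of 0.15 ± 0.15. On both probes clone 1 was the only R/R sample below the WT pool, but clone 2 was highest on one and clone 3 on the other. The files do not tie either probe to an isoform. With an SD of 0.40 over the clones on its brighter probe, E2f3 was the most variable member, above 90.1% of all genes, whose median SD was 0.17. The WT pool signal of that probe had an SD of 0.09 over the 4 arrays, against 0.38 for the R/R clones.

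E2f4, the main repressor partner of p130 and p107 in resting cells, had 0.18, 0.19 and 0.11 in the clones and -0.04 in the pool. The clones stood close together, with an SD of 0.04 that only 4.57% of genes went below, and all were above the WT pool, but the R/R pool was not. The estimate was 0.06 ± 0.09 (interval -0.15 to 0.28, limma adjusted p = 0.765). E2f5, which binds p130, had 0.38 in clone 1, -0.13 in clone 2, 0.36 in clone 3 and 0.15 in the pool. Clone 2 was the only R/R sample below the WT pool, and the estimate of 0.18 ± 0.13 (interval -0.15 to 0.50, adjusted p = 0.552) was the second highest of the family.

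E2f6 encodes a repressor that recruits a Polycomb complex with MGA, MAX and L3MBTL2 to its targets. Its log2 ratios were 1.08 in clone 1, 0.66 in clone 2, 1.11 in clone 3 and 1.06 in the R/R pool. As normalised log2 signals, the R/R samples read 9.52, 9.21, 9.62 and 9.40, and the WT pool read 8.44, 8.55, 8.51 and 8.34 on the same arrays. The lowest R/R signal lay above the highest WT signal, so the groups did not overlap, which held for 9.17% of all genes. The WT values are 4 readings of 1 pool, and clone 2 was the lowest R/R sample. The estimate was 1.01 ± 0.12 (interval 0.70 to 1.31, limma adjusted p = 0.0489), a fold of 2.01 with an interval of 1.63 to 2.48. It ranked 71 among 20045 genes by estimate and 103 by unadjusted p. E2f6 was the highest E2F gene on each of the 4 arrays. Between 0.454% of all genes on the pool array and 1.92% on the clone 2 array had a higher ratio. E2f6 had 1 probe found through its RefSeq accession, so no other probe was set beside it. Probes without such an accession were not searched.

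The call of E2f6 held in 9 of 15 other ways of processing the arrays, and its value was above 0 in all 15, from 0.95 to 1.20. It missed the threshold with the scanner software's ratios (adjusted p = 0.156), with median centring (0.102) and without clone 1 (0.113). It missed narrowly with a normexp offset of 16 (0.0526), with no filter on dim probes (0.0612) and with the mean of a gene's probes (0.0517), where the value of E2f6 itself moved little. Without clone 2 the value was 1.08 and without clone 3 it was 0.97, both called. Counting clones 1 and 2 as 1 sample gave 1.02 (adjusted p = 0.0392).

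**Figure D2:**
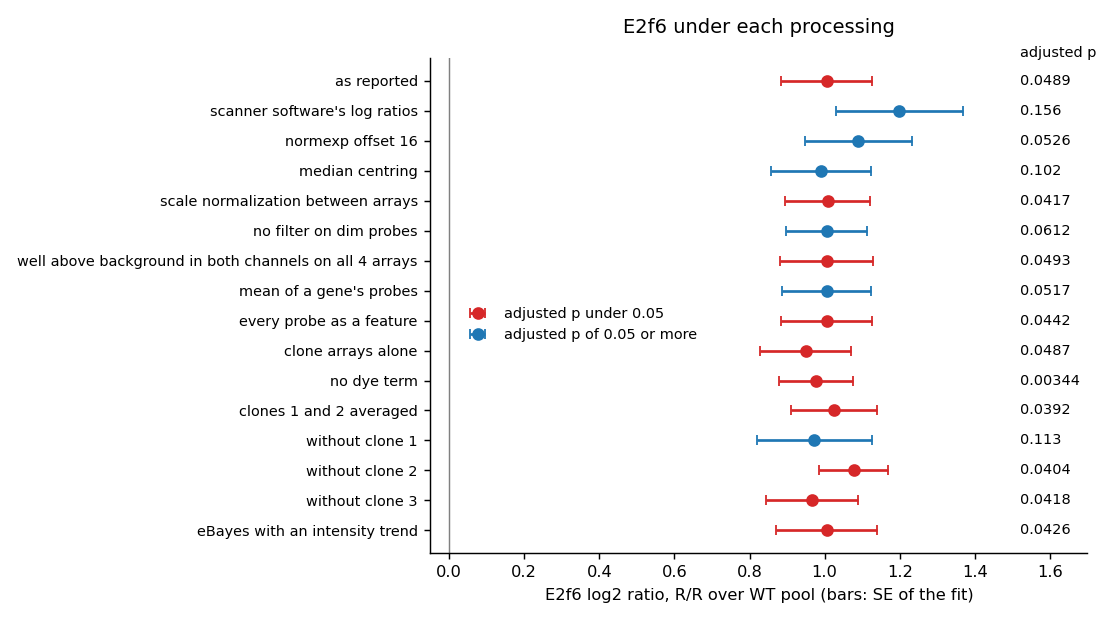
Fitted log2 ratio of E2f6 (x axis) as reported and under each of 15 other ways of processing (y axis), with the SE of the fit as bars and the limma adjusted p at the right. The values lie between 0.95 and 1.20 in every row, and the colour, red for an adjusted p under 0.05 and blue otherwise, changes between rows.

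E2f7 and E2f8 encode repressors that bind DNA without a DP partner and lower activator targets during S phase. E2f7 had -0.11, -0.08 and 0.12 in the clones and 0.09 in the pool on its brighter probe, and -0.06, 0.09, -0.03 and -0.13 on its dimmer probe. The probes gave estimates of 0.03 ± 0.09 and -0.06 ± 0.09, on opposite sides of 0, and the brighter had an adjusted p of 0.892. E2f8 had -0.15, -0.05 and -0.03 in the clones and 0.19 in the pool, an estimate of 0.06 ± 0.09 (interval -0.16 to 0.27, limma adjusted p = 0.793). All 3 clones stood below the WT pool for E2f8 and the R/R pool above it. The upper ends of the intervals of the 7 members other than E2f6 lay between 0.27 and 0.51, below the lower end of 0.70 for E2f6. These intervals rest on the spread of the clones, with variance drawn in part from all genes, and leave out that of the control.

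**Figure D3:**
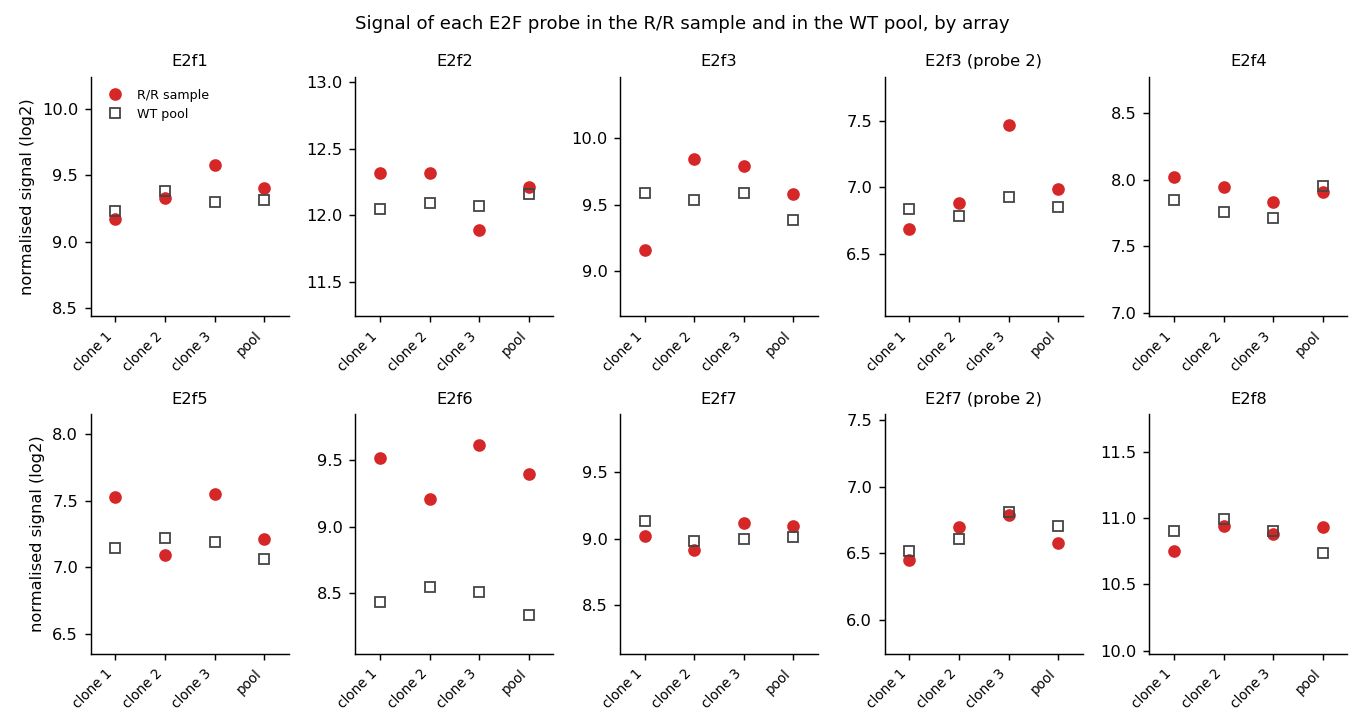
Normalised log2 signal (y axis) of each E2F probe in the R/R sample (red circles) and the WT pool (open squares) of each array (x axis). Every panel spans the same number of log2 units, and the squares are repeat readings of 1 pool. For E2f6 all red circles lie above all squares, as they do for 9.17% of all genes, and for the other members they do not.

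All 8 fitted values were above 0, against 46.4% of all genes, with a median of 0.08 against -0.02 over all genes. The signs of E2f7 and E2f8 were not stable: with the clone arrays alone they were -0.02 and -0.08, E2f7 was also below 0 with the mean of its probes and without clone 3, and E2f8 without the dye term. On single arrays 4 members were above 0 in clone 1, 4 in clone 2, 6 in clone 3 and 7 in the pool. E2f6 was the only member with the same sign on all 4 arrays, 1 of 8 where 30.8% of all genes had 1 sign. It was also the only member with an unadjusted p under 0.05, where 15.4% of all genes had one. All 10 probes were well above background in both channels on all 4 arrays, and no member spot was saturated.

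The mean log2 ratio of the 3 activators was -0.07 in clone 1, 0.16 in clone 2, 0.10 in clone 3 and 0.11 in the pool. That of the 5 repressors E2f4 to E2f8 was 0.28, 0.12, 0.33 and 0.29. The activators were thus lower than the repressors by 0.35 in clone 1, 0.24 in clone 3 and 0.18 in the pool, and 0.05 higher in clone 2. The mean difference over the clones was -0.18 with an SD of 0.20, so it was smaller than the spread between the 3 clones, and no test was made of it. That spread rests on clone 2. Without clone 2 the average of clone mean and pool was -0.24 and the SD of the other clones 0.08, so the difference was then the larger. Without clone 1 these were -0.14 and 0.20, and without clone 3 -0.165 and 0.28, so the spread stayed the larger. The difference rested on E2f6. Without E2f6 the difference was -0.15, 0.18, -0.04 and 0.01 in clones 1, 2, 3 and the pool. Against E2f4 and E2f5 alone it was -0.35, 0.13, -0.14 and 0.05. Against E2f6, E2f7 and E2f8 it was -0.34, -0.01, -0.30 and -0.34, below 0 on every array. E2f6 exceeded the mean of the other 7 members by 1.07 in clone 1, 0.60 in clone 2, 0.98 in clone 3 and 0.96 in the pool.

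The partners and inhibitors of E2F proteins gave no call among 5 genes, with 1 fitted value above 0, 4 below and a median of -0.14. Tfdp1, the more widely used DP partner, had 0.37, 0.49, -0.22 and 0.34 in clones 1, 2, 3 and the pool, and 0.28 ± 0.16 as an estimate (limma adjusted p = 0.447). Tfdp2 had -0.26 ± 0.14 (adjusted p = 0.450) on its brighter probe, with clone 2 above 0. Its dimmer probe gave -0.09 ± 0.09, with clone 2 at -0.07. Rb1, the pocket protein gene of the activators, read -0.24, -0.26, -0.28 and -0.13, below the WT pool on every array, but its estimate of -0.19 ± 0.09 did not pass (adjusted p = 0.361). Rbl2 had -0.13 ± 0.11 (adjusted p = 0.623) and Rbl1 -0.14 ± 0.13 (adjusted p = 0.641). Their directions are not settled: Rbl1 stood at 0.04 with the mean of its probes, and Rbl2 at 0.00 with the clones alone.

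Upstream of RB, 7 of 8 kinase and cyclin genes could be tested and none passed, with 4 above 0 and 3 below. Ccnd3, the D-type cyclin most used by lymphoid precursors, had 0.89, 0.39, 1.05 and 0.30 on the arrays and 0.54 ± 0.15 as an estimate (limma adjusted p = 0.193). Ccnd1 had -0.07 in clone 1 and -1.31, -1.15 and -0.98 in clone 2, clone 3 and the pool, for -0.91 ± 0.25 (adjusted p = 0.193). Clone 1 differed from the other R/R samples here. Ccne2, an E-type cyclin gene and E2F target, was not well above background in any channel. The MuvB core joins E2F4 and p130 in the DREAM repressor complex, and B-MYB, encoded by Mybl2, binds it outside DREAM. Of the 5 core genes and Mybl2 none passed, and 5 of the 6 were above 0. The smallest p were those of Lin37 at 0.16 ± 0.09 (adjusted p = 0.425) and Rbbp4 at 0.10 ± 0.09 (adjusted p = 0.629).

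None of 12 genes of E2F6-containing complexes passed, with 10 fitted values above 0, 2 below and a median of 0.11. L3mbtl2, a chromatin reader of that complex, had 0.38, -0.08, 0.56 and 0.36 on the arrays and 0.32 ± 0.14 as an estimate (limma adjusted p = 0.362). Clone 2 was the only R/R sample below the WT pool. Rnf2, the ubiquitin ligase of the complex, had -0.20 ± 0.10 (adjusted p = 0.407), and 0.01 with the clones alone. The 7 germline genes known to be silenced by E2F6, Stag3, Smc1b, Slc25a31, Tuba3a, Tuba3b, Stk31 and Mael, could not be tested. None cleared background in a WT channel, and Tuba3b alone did so in an R/R channel, on 1 array.

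Among 34 G1/S genes known as E2F targets, 32 could be tested and none passed, with 22 above 0, 10 below and a median of 0.07. Fen1, a flap endonuclease gene of DNA replication, had 0.41 ± 0.11 (limma adjusted p = 0.193), drawn up by 0.73 in the pool, while the clones read 0.26, -0.14 and 0.19. In their windows before the start, 10 of 28 G1/S genes (35.7%) held an E2F octamer, against 1 of 14 G2/M genes (7.14%) and 583 of all 27025 genes (2.16%), counting a gene once if any of its windows held one.

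None of 16 G2/M genes of the DREAM set passed, with 10 above 0 and 6 below. Ccnb1, the mitotic cyclin B1 gene, had 0.54, 0.86, 0.32 and 0.94 on the arrays and 0.76 ± 0.13 as an estimate (limma adjusted p = 0.0935). Its other probes both gave 0.72, and one of them passed when each probe was tested on its own (adjusted p = 0.0456). Ndc80, a kinetochore gene, went the other way, with -0.66, -0.55, -0.80 and -0.43 and an estimate of -0.55 ± 0.10 (adjusted p = 0.104). Of the 16 genes, 7 were above the WT pool on all 4 arrays and 2 below it. Of the 32 G1/S genes tested, 9 were above it on all 4 and 1 below. Of all genes, 14.6% were above on all 4, and 30.8% had 1 sign on all 4. Named after their values were seen, the G2/M genes above were, beside Ccnb1, the mitotic kinase gene Cdk1 at 0.49, Birc5 at 0.33, Cdc20 at 0.31, Aurka at 0.29, Ccnb2 at 0.27 and Plk1 at 0.27, and below, beside Ndc80, Top2a at -0.08. Other probes gave lower estimates for Cdk1, 0.14 and 0.19, and for Birc5, 0.22 and 0.15. The Birc5 probe at 0.15 read -0.05 in clone 2.

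Of 10 apoptosis genes known as E2F1 targets, 9 could be tested. Of these 1 fell and none was called higher. Bbc3, which encodes the BH3-only killer protein PUMA, read -1.67, -1.21, -1.38 and -1.39, an estimate of -1.41 ± 0.12 (limma adjusted p = 0.0231). All R/R samples were below the WT pool. The call was lost with the scanner software's ratios (adjusted p = 0.0962) and after median centring (0.0906). Bbc3 is also known as a p53 target. Cdkn2a, which encodes p16INK4a and ARF and is named after its values were seen, went the other way, with 1.69, 1.22, 0.54 and 1.62 on the arrays. Its estimate of 1.39 ± 0.22 was larger than that of E2f6 but did not pass (adjusted p = 0.086). Of the 9 genes, 3 were above 0 and 6 below.

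**Figure D4:**
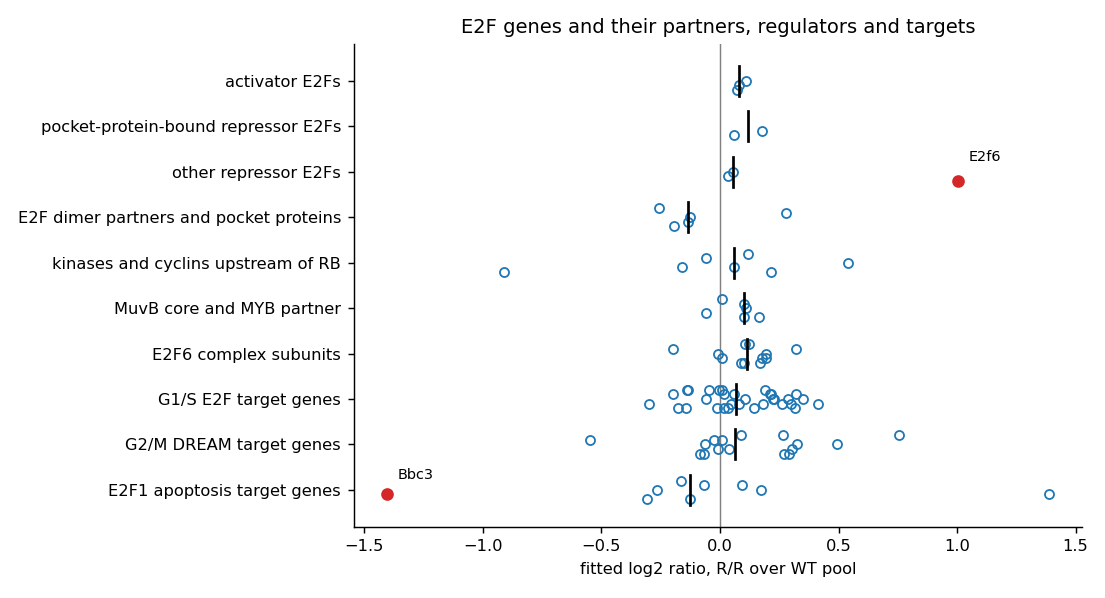
Fitted log2 ratio of R/R over WT (x axis) for the E2F genes and the genes of each list that could be tested (rows), 1 circle per gene with the list's median as a bar, and filled red circles for genes with a limma adjusted p under 0.05. E2f6 at 1.01 and Bbc3 at -1.41 are the filled circles, and the list medians lie between -0.14 and 0.12.

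The genes whose pattern over the 4 arrays lay nearest to that of E2f6, by Euclidean distance of the log2 ratios, were Ncbp3, Evpl and Rtl5 among genes with a symbol. Ncbp3, an RNA cap-binding protein gene, lay at a distance of 0.209 and was no lower than 0.72 on any array, with an estimate of 0.92 ± 0.11 (limma adjusted p = 0.0476). With the mean of its probes Ncbp3 stood at 0.38 and was not called. Evpl, a gene of the cornified cell envelope, lay at 0.330 and had 0.86 ± 0.15 (adjusted p = 0.107). Rtl5, a gene derived from a retrotransposon, lay at 0.406 and had 0.84 ± 0.11 (adjusted p = 0.0527). All genes shared the same 4 hybridisations and the same WT pool. The nearest tested genes beside E2f6 on its chromosome, chosen after their values were seen, were Trib2 at 0.12, Lpin1 at -0.19 and Greb1 at -0.16 on one side, and Rock2 at -0.04, Pqlc3 at -0.17 and Pdia6 at 0.42 (adjusted p = 0.155) on the other. None of these 6 was called.

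The labelled origin was checked with cell type markers. All 9 early B lineage genes, Pax5 and Ebf1 among them, were well above background in every channel, and none was called. Of 5 hepatocyte genes, none cleared background in an R/R sample and 1 did in a WT channel. Of 7 erythroid genes, Klf1, Epor, Alas2 and Hba-a1 were well above background in no channel. Gata1 was so in all 4 WT and no R/R channels. It was dim, with a mean log2 signal of 6.25, and its estimate of -0.21 was not called (limma adjusted p = 0.333). The beta-globin genes Hbb-bh1 (-1.81, limma adjusted p = 0.0109) and Hbb-bt (-1.84, adjusted p = 0.0417) were lower in R/R cells. The summed signal of the 7 erythroid genes was 2235 to 3760 in R/R and 9093 to 10120 in WT channels. Most of that sum was Hbb-bt, with a mean log2 signal of 12.15 against 8.18 for Hbb-bh1. The sum thus largely repeats the Hbb-bt result, and its part in the E2F values was not tested. No myeloid, T cell or megakaryocyte marker that could be tested was called. Itgam, Csf1r and Elane of 7 myeloid genes, and Cd4, Lck and Cd3e of 6 T cell genes, were well above background in every channel. The other genes of both lists were not. The early B lineage genes were thus not the only lineage markers detected. In RNA from whole cultures, fewer cells of a type and less RNA per cell cannot be told apart.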

How the data were processed

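Per the file headers, the deposited intensity values are median pixel brightnesses of each spot and its background from Feature Extraction 11.5.1.1, not corrected. The deposited log10 values are the scanner software's dye-normalised ratios of Cy5 to Cy3 and served, once converted to log2, as an alternative. Steps by the authors beyond this are not given in the sources used here.

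Background was corrected by normexp (offset 50) and dyes were balanced by loess in each array, with control spots at weight 0, in limma 3.58.1 under R 4.3.3. Outlier spots, 210 to 265 an array, were dropped before replicate spots were averaged. Of 55681 probes 27656 matched a symbol, through unversioned RefSeq accessions. A probe was tested if the R/R sample, or the WT pool, was well above background for it on 3 or more of the 4 arrays (26439 probes), and a gene was read from its brightest probe (20045 genes, 12296 with a symbol). Per channel, 42.8% to 53.4% of spots were well above background, and the number of arrays limits the precision. Levels per channel were taken after Aquantile normalisation. The fit had a genotype and a dye term and was two-sided, with Benjamini-Hochberg adjustment over all genes at 0.05. P-values rest on the spread between the 3 clones, because the fit passes exactly through the pool array, which adds no spread. The clones left 2 residual degrees of freedom. Drawing variance from all genes, as limma does, raised the total to 5.54, so a p-value reflects only in part a gene's own spread. The pool value enters each estimate with its error taken as equal to that of a clone. Where clones share an origin, their spread is partly technical.

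Every E2F gene is named, with Tfdp1, Tfdp2, Rb1, Rbl1 and Rbl2. From each list the called genes are named or, with none, the 2 of smallest p, and for E2f6 the 3 nearest genes. A gene that the rule took is not reported here. Cdk1, Birc5, Cdc20, Aurka, Ccnb2, Plk1, Top2a, Cdkn2a, Ccne2, Gata1 and the other probes of Ccnb1, Cdk1 and Birc5 were added after their values were seen. So were the genes beside E2f6 on its chromosome and the named myeloid and T cell markers. Members and lists were chosen with earlier results of these data known. Promoter windows are from RefSeq, GRCm38.p6. Alternatives were the scanner software's ratios, offset 16, median centring, scaling between arrays, 2 other filters, the mean of a gene's probes, every probe, the clones alone, no dye term, clones 1 and 2 averaged, each clone left out, and an intensity trend.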

Additional observations from a re-analysis of the deposited data

Results flagged for a closer look

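E2f4 and E2f8 differed between the R/R clones and the R/R pool, with the clones all on one side of the WT pool and the R/R pool on the other. For E2f4 the clone mean was 0.16 and the pool -0.04, a difference of 0.20 on the log2 scale. For E2f8 the clone mean was -0.08 and the pool 0.19, a difference of -0.26. Neither difference was tested. The pool array is also the one with swapped dyes, so pool and dye cannot be told apart.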

How the results depend on the processing

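Over 15 alternatives the value of E2f6 stayed above 0. The number of E2F genes called fell from 1 to 0 with the scanner software's ratios, offset 16, median centring, no filter and the mean of probes, and ranged from 0 to 1 over the fits that left out 1 clone (0 without clone 1). The 105 called genes became 50 with the scanner software's ratios, 30 with median centring, 1140 without the dye term, and 58 without clone 1 to 264 without clone 3. E2f7 turned to -0.016 with the mean of its probes and -0.023 with the clones alone, and lay between -0.0025 and 0.054 with 1 clone left out. E2f8 turned to -0.075 with the clones alone and -0.010 without the dye term. Rbl1 turned to 0.043 with the mean of probes, and with the clones alone Rbl2 turned to 0.00028 and Rnf2 to 0.0052. The causes were not tested. The activator minus repressor difference stayed below 0 in all alternatives run, between -0.24 and -0.14. The deposited log2 table was not run, because its row numbers match no probe.

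The calls rest on 3 clones, 2 of them with clone numbers of the same stem, 1 R/R pool and 1 WT pool of unstated content. Genotype and the history of each clone cannot be told apart. R/R and WT were compared within each array, as ratios. The R/R clones and the R/R pool could not be paired with each other, because those groups share fewer than 2 replicate numbers.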
